A study of Homo sapiens with 9 samples.

Results

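Claudin-1 (CLDN1) and 8 further genes of the tight junction, CLDN11, CLDN12, OCLN, TJP1, F11R, JAM3, CGN and CGNL1, were followed in U87, a human glioma cell line in long use, transfected with either form of the microRNA miR-376a* or with a control duplex. CLDN1 was chosen by its known high signal on the miR-376a*G arrays of these same data, so its differences from that group are given as a description with no test. The question for the other genes was whether CLDN1 moved alone or with them. Of the 9 genes, 8 had at least 1 probe set assigned to that gene alone; F11R had none and was not analysed here. Between them the 8 genes had 19 probe sets of the 41097 that were assigned to 1 gene. CLDN11 was too dim on all 3 of its probe sets to be tested, which left 7 genes among 12587 tested.

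The study used 3 groups of 3 Affymetrix expression arrays: cells given miR-376a*A, cells given miR-376a*G and cells given a control duplex. Every group received 50 nM of duplex with a lipid reagent and was kept for 72 h, so the controls had also been transfected. The A and G forms are known as the unedited and the edited version of the microRNA, which differ at 1 adenosine that editing changes to inosine, read as guanosine. The labels call the replicates biological but name no separate cultures, so p-values here measure only the spread between these 3 samples a group, and U87 is a single line grown without other cell types.

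Tight junctions seal the space between neighbouring cells of epithelia and of brain vessels. Claudins are membrane proteins that form the sealing strands, occludin sits in the same strands, and junctional adhesion molecules are proteins of the immunoglobulin family beside them. On the inner side ZO-1, encoded by TJP1, ties the membrane proteins to actin, and cingulin and its relative paracingulin (CGN and CGNL1) bind ZO-1 and regulate small GTPases. Cells of glial origin can carry some of these transcripts without forming an epithelial seal.

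The microRNA arms that carry the name miR-376a* come from a pair of hairpin genes on chromosome 14, and their sequences are shown because the 2 forms compared here differ within such an arm. The seed, bases 2 to 8, is in capitals; the sequences are RefSeq's, on the plus strand of GRCh38.p14. MIR376A1 gives the first, at chr14:101040788-101040809, and MIR376A2 gives the second, at chr14:101040080-101040100.

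hsa-miR-376a-5p: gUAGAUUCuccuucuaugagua

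hsa-miR-376a-2-5p: gGUAGAUUuuccuucuauggu

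The mature arms have 22 and 21 bases and different seeds, each with 2 adenosines. The labels give neither the sequences of the transfected duplexes nor the edited position, so no edited sequence is shown.

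Values are deposited signals on a linear scale, with the arrays already scaled to one another, and an array's median signal lay between 18.0 and 24.6. Signals of different probe sets are not comparable as amounts, so each gene is compared only with itself between groups. Differences are group means of log2(signal + 1), with a standard error (SE) and an adjusted p from a limma model of all tested genes; a gene passed at an adjusted p under 0.05. Such a difference understates the change of a dim gene. A gene's brightest probe set over the 9 arrays stands for it, and its other probe sets are given separately.

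A pair of arrays stood apart from their labels when correlated over genes. For the first, labelled miR-376a*A replicate 1, the correlation was 0.99 with control replicate 3 against 0.925 with miR-376a*A replicate 2. For the second, labelled control replicate 1, it was 0.99 with miR-376a*A replicate 2 against 0.935 with control replicate 2. The labels were kept; that these 2 arrays had their labels exchanged is possible and was not tested, and it would change the meaning of each 9-array value of miR-376a*A or control. The 3 miR-376a*G arrays correlated with each other at 0.986 to 0.988. Results are therefore given for all 9 arrays and again for the 7 arrays without those 2, with the same genes tested. Those 2 arrays were picked by their values in these same data, and leaving them out narrows the spread within their groups. The adjusted p-values on 7 arrays are therefore likely to be too small, and they and the calls made from them are a description.

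The glioma line's usual genes VIM, CD44, TNC, SOX9, NES and FABP7 were above the array median on 9 of 9 arrays, whereas the astrocyte genes GFAP and S100B, also on that list, were above it on 0 arrays. The summed signal of the 8 genes was 5366 to 6532 in controls, 5802 to 7670 with miR-376a*A and 5685 to 6109 with miR-376a*G. Of 7 epithelial markers, only KRT8 was tested. The epithelial markers CDH1, ESRP1, GRHL2, KRT18 and KRT19 were above the median on 0 arrays, and EPCAM was above it on 2. The summed epithelial signal was 68.8 to 85.9 in controls, 71.3 to 95.2 with miR-376a*A and 87.7 to 119 with miR-376a*G.

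CLDN1, a claudin of skin and other epithelia, had signals of 25.7, 23.3 and 26.5 on control replicates 1, 2 and 3. They were 27.5, 14.5 and 12.0 with miR-376a*A, in the same order of replicates. With miR-376a*G they were 193, 193 and 198, a mean of 195 ± 2.78 (SD, n = 3) against 25.2 ± 1.66 (SD, n = 3) in controls. All 3 miR-376a*G arrays lay far above the other 6, and control replicate 1, which stood apart for genes at large, lay beside the other controls for CLDN1.

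The difference between miR-376a*G and control was 2.90 (SE 0.27, 95% interval 2.30 to 3.50), or 7.48-fold, and it was the 9th largest increase of 12587 genes. On the 7 arrays it was 2.92 (SE 0.15). The second probe set of CLDN1 (218182_s_at) read 4.74, 7.47 and 7.52 on controls, 11.2, 0.65 and 2.39 with miR-376a*A, and 48.5, 34.9 and 65.0 with miR-376a*G. It was above the array median on the 3 miR-376a*G arrays alone and entered the fit through them; its difference from control was 2.72 (SE 0.65). Its values are a description, since a probe set that passes through 1 group alone has to differ there.

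Between miR-376a*A and control, CLDN1 differed by -0.55 (SE 0.27) with a limma adjusted p of 0.886, and the groups overlapped because miR-376a*A replicate 1 was the highest of the 6 arrays. On the 7 arrays CLDN1 was lower with miR-376a*A by -0.87 (SE 0.17, limma adjusted p = 0.00201). The second probe set was above the array median on 0 of the 6 arrays of these groups and is not used for this comparison. Between the A and G forms the difference was -3.45 (SE 0.27) on 9 arrays and -3.78 (SE 0.15) on 7. The miR-376a*A signals of replicates 2 and 3 were below their arrays' medians of 21.1 and 19.3, and no detection call was used, so how far they lie above background is not known and no fold is given; the lower CLDN1 level with miR-376a*A than with control on 7 arrays has the same limit. In bulk RNA of this kind, fewer cells with a transcript and less of it per cell cannot be told apart.

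**Figure D1:**
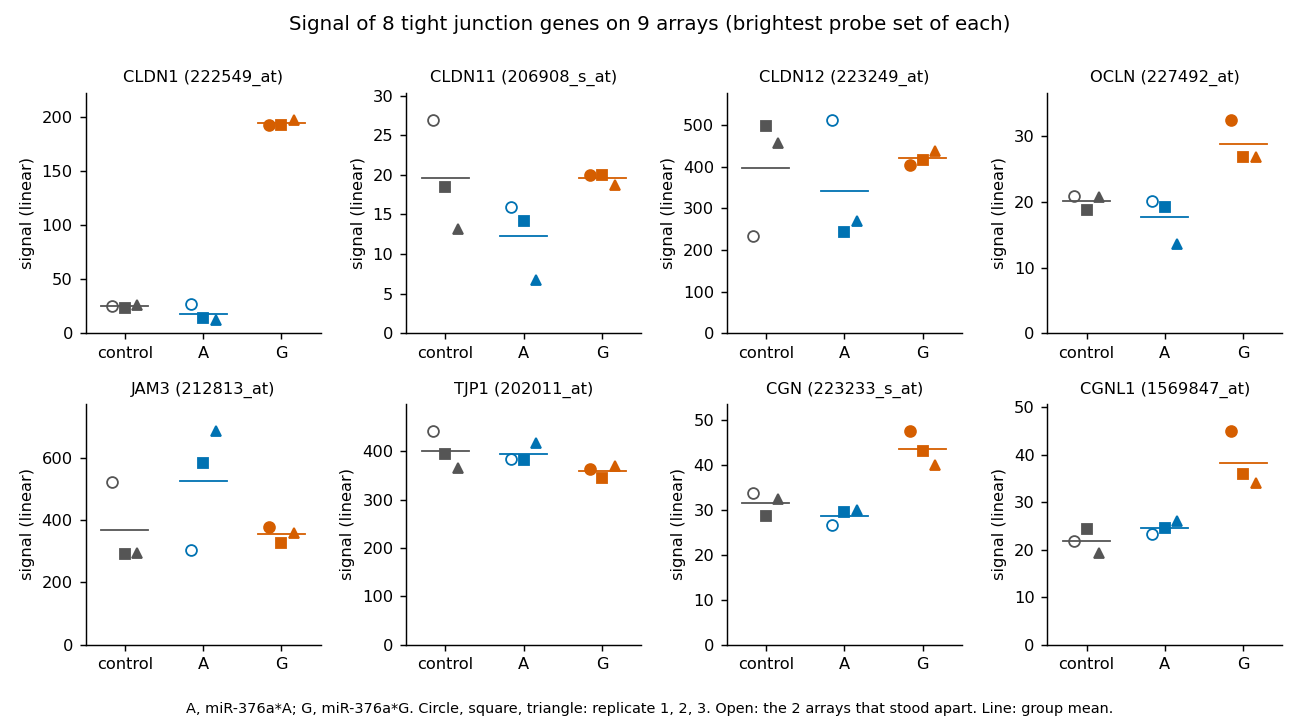
Linear signal of the brightest probe set of 8 tight junction genes, 1 panel per gene, on the 9 arrays; marker shape gives the replicate number, open markers the 2 arrays that stood apart, and lines the group means. CLDN1 read 193 to 198 on the miR-376a*G arrays and 12.0 to 27.5 elsewhere; OCLN, CGN and CGNL1 were also highest there by smaller margins, while CLDN12 and JAM3 followed the 2 open markers.

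Of the other claudins among these genes only CLDN12 was tested, and it did not share this pattern. CLDN12, a claudin without the usual binding motif for ZO proteins, read 233, 496 and 457 on control replicates 1 to 3, 513, 243 and 271 with miR-376a*A, and 405, 417 and 438 with miR-376a*G. Within both other groups the first replicate stood far from the remaining pair, in opposite directions. Against control, miR-376a*G differed by 0.16 (SE 0.33, limma adjusted p = 0.738) and miR-376a*A by -0.22 (SE 0.33, limma adjusted p = 0.905).

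On the 7 arrays CLDN12 was lower with miR-376a*A than with control by -0.89 (SE 0.09, limma adjusted p = 3.52e-05) and lower than with miR-376a*G by -0.71 (limma adjusted p = 3.55e-05). Its difference between miR-376a*G and control was -0.18 there (limma adjusted p = 0.0934), with the sign turned from that of 9 arrays. CLDN11, the claudin of myelin, had no tested probe set; its brightest one read 13.2 to 27.0 on controls, 6.72 to 15.9 with miR-376a*A, and had a mean of 19.6 ± 0.69 (SD, n = 3) with miR-376a*G. That probe set was above the array median on 1 of 9 arrays and the other 2 of CLDN11 on 0, so no direction is drawn for it.

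Occludin, encoded by OCLN, read 20.8, 18.8 and 20.7 on control replicates 1 to 3, 20.2, 19.1 and 13.6 with miR-376a*A, and 32.5, 26.8 and 26.9 with miR-376a*G. All 3 miR-376a*G arrays were above the other 6, at a signal close to the array median. The difference from control was 0.49 (SE 0.21, limma adjusted p = 0.109) and did not pass. With miR-376a*A against miR-376a*G it was -0.69 (SE 0.21, limma adjusted p = 0.0313), which passed, and -0.79 (limma adjusted p = 0.0183) on 7 arrays. The other 3 probe sets of OCLN were above the median on 0 arrays; they did not share 1 pattern. The first, 209925_at, read 2.70 to 4.22 on controls, 3.46 to 8.05 with miR-376a*A and 9.02 to 13.6 with miR-376a*G. The second, 231022_at, read 9.64 to 13.8, 2.85 to 13.4 and 6.11 to 15.8 in that order of groups, and the third, 235937_at, at most 2.01, 1.25 and 7.08. RefSeq lists a pseudogene copy, OCLNP1, and whether the probe sets separate it from OCLN was not tested.

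JAM3, a junctional adhesion molecule also present on glial and endothelial cells, read 524, 293 and 294 on control replicates 1 to 3, 304, 587 and 689 with miR-376a*A, and 379, 329 and 359 with miR-376a*G. As for CLDN12, the first replicates of control and miR-376a*A each lay with the other group. On 9 arrays the difference was -0.01 (SE 0.32, limma adjusted p = 0.99) for miR-376a*G and 0.48 (SE 0.32, limma adjusted p = 0.886) for miR-376a*A against control.

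On 7 arrays JAM3 was higher with miR-376a*A than with control by 1.11 (SE 0.10, limma adjusted p = 1.61e-05), or 2.16-fold, and higher than with miR-376a*G by 0.84 (limma adjusted p = 2.13e-05). It was also higher with miR-376a*G than with control, by 0.27 (limma adjusted p = 0.0322). Both further probe sets of JAM3 had the same order on 7 arrays: against control, miR-376a*A was 3.04-fold higher on 231720_s_at (limma adjusted p = 9.36e-06) and 2.64-fold higher on 231721_at (limma adjusted p = 2.52e-05). So where CLDN1 was lower with miR-376a*A on the 7 arrays, JAM3 was higher.

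Among the proteins of the inner side, TJP1 (ZO-1) varied least. Its signals were 442, 395 and 366 on control replicates 1 to 3, 383, 381 and 416 with miR-376a*A, and 364, 345 and 369 with miR-376a*G. The miR-376a*G arrays were at the low end, overlapping the controls. The difference from control was -0.15 (SE 0.11, 95% interval -0.39 to 0.09, limma adjusted p = 0.294) for miR-376a*G and -0.02 (SE 0.11, limma adjusted p = 0.962) for miR-376a*A. With the arrays centred on their medians, the first was -0.38 and passed (limma adjusted p = 0.0427), and scaled to spiked-in hybridisation controls it was 0.25, so its direction depended on the scaling.

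The second probe set of TJP1 (214168_s_at) read 105, 98.7 and 81.2 on controls, 118, 124 and 150 with miR-376a*A, and 101, 103 and 116 with miR-376a*G. Here the miR-376a*A arrays were the highest. The difference from control was 0.46 (SE 0.15, limma adjusted p = 0.899) on 9 arrays and 0.61 (SE 0.15, limma adjusted p = 0.00763) on 7, while the brighter probe set gave 0.07 there (limma adjusted p = 0.595). The probe sets of TJP1 therefore disagreed on miR-376a*A.

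Cingulin, encoded by CGN, read 33.7, 28.7 and 32.3 on control replicates 1 to 3, 26.6, 29.6 and 30.0 with miR-376a*A, and 47.6, 43.3 and 40.1 with miR-376a*G. The 3 miR-376a*G arrays were above all the others. The difference from control was 0.46 (SE 0.16, limma adjusted p = 0.0546), or 1.37-fold, just outside the threshold; on 7 arrays it was 0.50 and passed (limma adjusted p = 0.0347). CGN was lower with miR-376a*A than with miR-376a*G by -0.59 (SE 0.16, limma adjusted p = 0.0184). Its second probe set was above the median on 0 arrays, with signals of 2.25 to 12.6.

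CGNL1 (paracingulin) read 21.9, 24.3 and 19.4 on control replicates 1 to 3, 23.2, 24.7 and 26.1 with miR-376a*A, and 45.0, 36.0 and 34.1 with miR-376a*G on its probe set 1569847_at. Its miR-376a*G arrays did not overlap the rest. It rose by 0.78 (SE 0.19, limma adjusted p = 0.0113), or 1.72-fold, against control, and was lower with miR-376a*A than with miR-376a*G by -0.61 (SE 0.19, limma adjusted p = 0.0292). Without miR-376a*G replicate 1 the first was 0.66 (limma adjusted p = 0.0512).

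The second probe set of CGNL1 (225817_at) went the other way, reading 34.7, 15.1 and 13.5 on controls, 14.7, 30.2 and 26.2 with miR-376a*A, and 7.80, 16.5 and 11.5 with miR-376a*G. The difference between miR-376a*G and control was -0.71 (SE 0.43, limma adjusted p = 0.245). On 7 arrays this probe set was higher with miR-376a*A than with miR-376a*G by 1.23. It was above the median on 3 of 9 arrays: control replicate 1 and miR-376a*A replicates 2 and 3. On the 7 arrays it thus passed the filter through miR-376a*A alone, and the 1.23 is a description. The mean of both gave 0.04 (limma adjusted p = 0.924) between miR-376a*G and control, so the rise of CGNL1 rests on 1 probe set.

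**Figure D2:**
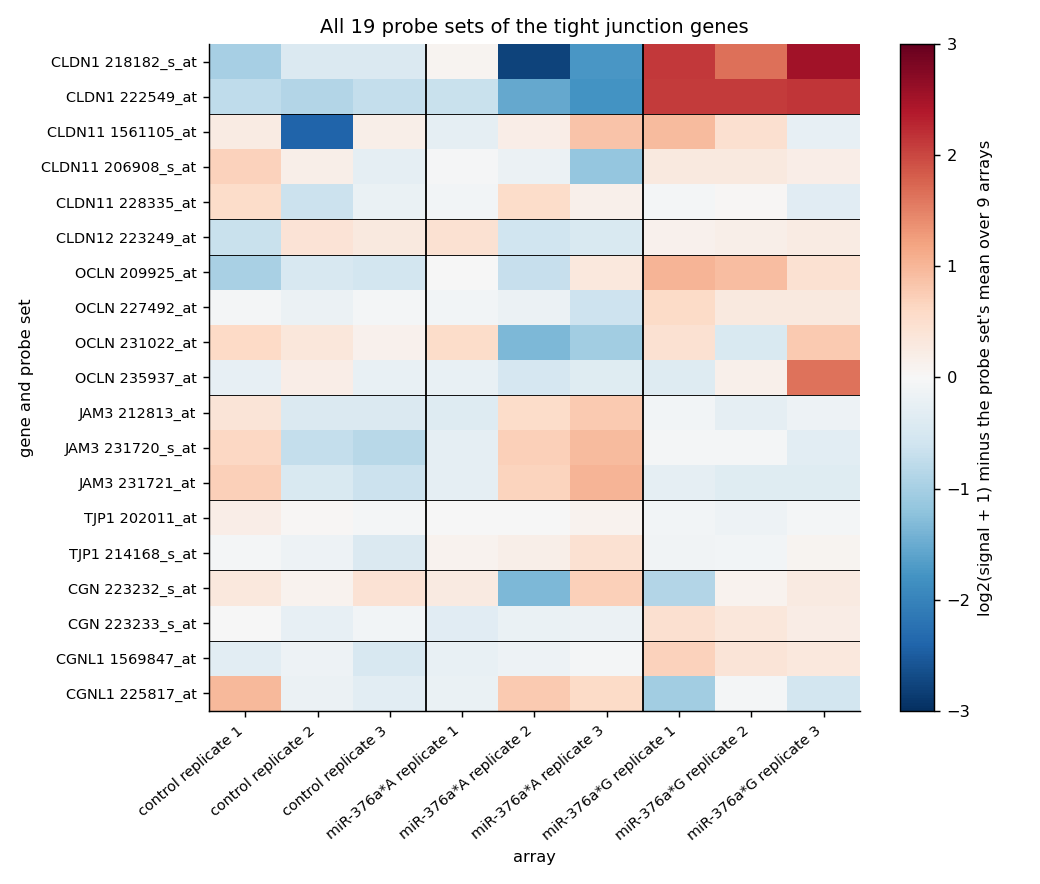
Log2(signal + 1) of each of the 19 probe sets minus its own mean over the 9 arrays, with a row per probe set, a column per array and black lines between genes and groups. The 2 CLDN1 rows are high in the same 3 columns, and the 3 JAM3 rows are high in miR-376a*A replicates 2 and 3 and control replicate 1. The 2 CGNL1 rows differ: 1569847_at is high in the miR-376a*G columns, and 225817_at in miR-376a*A replicates 2 and 3 and control replicate 1.

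Counted together, 1 of the 6 other tested genes (CGNL1) passed between miR-376a*G and control on 9 arrays, where 33.4% of all genes passed. Between miR-376a*A and control 0 of 6 passed and 0% of all genes, although 463 of 12587 genes had an unadjusted limma p under 0.05; with array weights, which give the arrays that stood apart less influence, 2 of 6 passed, where 43.8% of all genes did. Between the 2 microRNA forms, 3 of 6 passed (OCLN, CGN and CGNL1, all lower with miR-376a*A), where 38.2% of all genes passed. Without miR-376a*G replicate 1 the counts of that group were 0 against control and 0 between the forms, where 23.9% and 27.8% of all genes passed. The 3 became 0 without miR-376a*G replicate 2 (29.1% of all genes) and 1 without miR-376a*A replicate 3 (28.3%). It became 2 without miR-376a*A replicate 2 (32.7%) or miR-376a*G replicate 3 (27.9%).

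On the 7 arrays 3 of 6 passed between miR-376a*G and control (JAM3, CGN and CGNL1, higher), beside 56.1% of all genes. For miR-376a*A against control 2 of 6 passed (JAM3 higher, CLDN12 lower), beside 41.9% of all genes. When the forms were compared, 5 of 6 passed (JAM3 higher; CLDN12, OCLN, CGN and CGNL1 lower), beside 59.6%. The 2 comparisons with control share their control arrays.

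Taken by probe set, 10 of the other genes' probe sets were tested. On 9 arrays 1 passed between miR-376a*G and control, 0 between miR-376a*A and control, and 3 between the 2 forms, where 32.3%, 0% and 36.1% of all 24316 probe sets passed. On 7 arrays the counts were 4, 5 and 9 of 10, where 54.2%, 40.2% and 58.3% passed. The 9 include 225817_at of CGNL1, which on those arrays passed the filter through miR-376a*A alone.

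CLDN1, OCLN, CGN and CGNL1 each had all 3 miR-376a*G arrays above the other 6, as had 26.4% of the tested genes. None of the 7 had them below, which 18.9% of genes had. The array medians were 21.7 to 24.6 on the miR-376a*G arrays and 18.0 to 22.0 on the other 6. With the arrays centred on their medians, OCLN, CGN and CGNL1 passed in neither comparison of miR-376a*G. The size of the difference varied among these 4 genes: CLDN1 stood 2.90 above control on the log2 scale, CGNL1 0.78, OCLN 0.49 and CGN 0.46. The median difference over all genes in this comparison was 0.12. The list was set with these results known, and nothing is read from its counts against the shares of all genes.

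**Figure D3:**
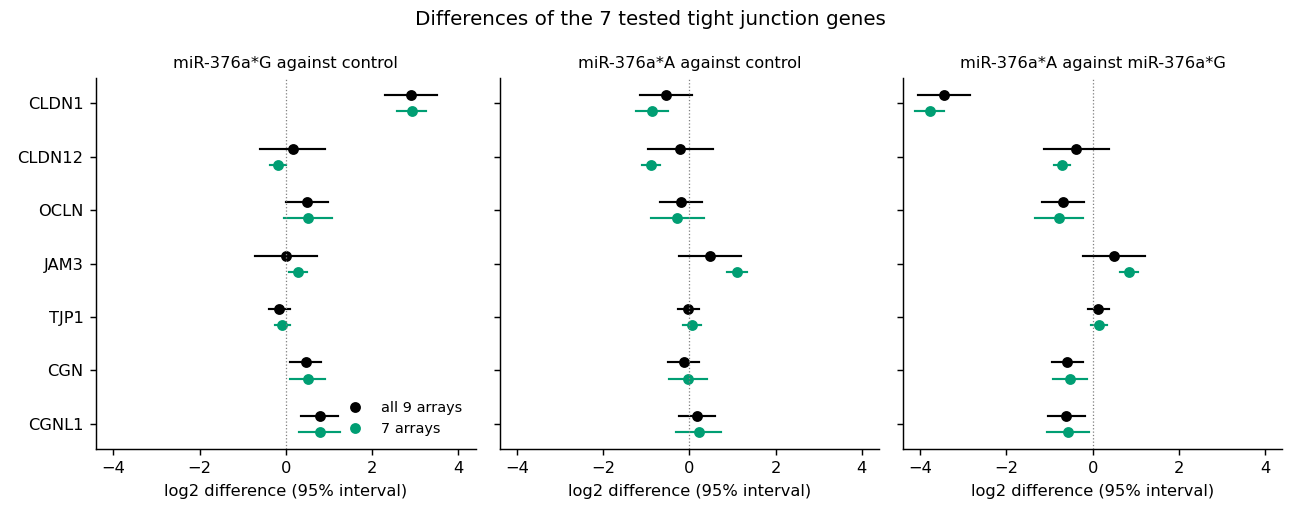
Log2 differences with 95% intervals of the 7 tested genes in the 3 comparisons, in black for 9 arrays and in green for the 7 without the 2 that stood apart. CLDN1 lies at 2.90 in the first panel while the other 6 lie between -0.15 and 0.78; CLDN12 and JAM3 have intervals across 0 in the middle panel on 9 arrays and not on 7.

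The genes whose pattern over the 9 arrays was most like that of CLDN1 were SLC67A2, FICD, EWSR1, COQ5 and SLC5A6, with Pearson correlations of log2 values of 0.994 to 0.995. Among the tight junction genes the correlation with CLDN1 was 0.912 for OCLN (rank 1082 of 12587), 0.897 for CGN (rank 1283) and 0.835 for CGNL1 (rank 2034). It was 0.425 for CLDN12, -0.44 for JAM3 and -0.659 for TJP1. On the 7 arrays LAMA1, GPM6A, CENPL, ESPL1 and RRP15 came first at 0.998 to 0.999, and OCLN, CGN and CGNL1 had 0.919, 0.946 and 0.83. These values describe 9 or 7 points that mainly separate the miR-376a*G arrays from the rest, and they share the arrays and their scaling.

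The wider junction genes were taken as lists drawn up with earlier results of these data known. Among 26 further membrane proteins of the tight junction, 24 had a probe set and 12 were tested. Between miR-376a*G and control 0 of them passed in either direction (limma), where 33.4% of all genes passed, and their median difference was 0.15. An unadjusted limma p under 0.05 was found for 3 of them (CLMP, LSR and CXADR, named after their values were seen), and for 5541 of 12587 genes. The lowest of those was for CLMP, an adhesion molecule, at -0.28 (limma adjusted p = 0.0652). The count of 0 did not hold under every setting. Scaled to spiked-in hybridisation or poly-A controls, 3 and 1 genes were higher, where 44.4% and 36.3% of all genes were. With median centring or quantile normalization, 2 and 1 were lower, where 20.6% and 16.7% of all genes were. With array weights 4 were higher and 3 lower, where 36.3% and 26.2% of all genes were. With 7 arrays, where 31.2% of all genes were higher and 25.0% lower, 2 rose, CLDN15 (1.72) and CLDN18 (1.01), and 2 fell, CXADR (-0.55) and CLMP (-0.26). CLDN15 and CLDN18 were also higher with miR-376a*A than with control on those arrays, by 1.84 and 0.84, and JAM2 by 1.03.

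Of 21 scaffold and polarity genes 12 were tested, and between miR-376a*G and control 6 rose and 1 fell, with a median of 0.41, where 18.0% of all genes were higher and 15.4% lower. The polarity protein gene PARD6A rose by 1.56 (SE 0.16, limma adjusted p = 0.00013), the angiomotin-like gene AMOTL2 by 1.06 and the scaffold gene MAGI3 by 0.60. PALS1, which encodes a Crumbs complex scaffold, fell by 1.18 (limma adjusted p = 0.00768). The 6 increases became 2 when the arrays were centred on their medians (8.48% of all genes were then higher) and 3 with the mean of all probe sets (17.4%). They became 3 without miR-376a*G replicate 1 (12.0%), and 2 without replicate 2 (12.7%) or replicate 3 (11.8%) of that group. The signs of the 4 genes named held under each scaling tried. With miR-376a*A against miR-376a*G, 5 were lower and 1, PALS1, was higher, where 21.8% of all genes were lower and 16.4% higher.

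Adherens junctions hold cells together through cadherins and catenins. Of 8 tested genes 2 fell with miR-376a*G against control, CTNNA1 by 0.79 (SE 0.12, limma adjusted p = 0.000974) and CTNNB1, beta-catenin, by 0.55 (limma adjusted p = 0.00176), and 0 rose, where 15.4% of all genes were lower and 18.0% higher. Scaled to the spiked-in hybridisation controls, CTNNB1 was at -0.15 (limma adjusted p = 0.21) and CTNNA1 still passed. The N-cadherin gene CDH2 differed by 0.82 with an SE of 0.71 on 9 arrays and by 1.55 (limma adjusted p = 3.19e-06) on 7, where 3 of 8 genes were higher (NECTIN2 by 0.56 and NECTIN3 by 0.43 beside CDH2) and the same 2 lower, among 56.1% of all genes that passed. With miR-376a*A against control on 7 arrays 5 of 8 were higher and 2 lower, among 41.9% of all genes. CDH2 was higher by 2.19, NECTIN3 by 1.13 and CDH11 by 1.04, and the lower ones, named after their values were seen, were AFDN (-0.36) and NECTIN1 (-0.63).

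Of 5 tested desmosome and plakin genes 1 rose and 1 fell with miR-376a*G, where 33.4% of all genes passed: PKP4, encoding a plakophilin, by 0.93, and PPL, encoding periplakin, by -5.28 (SE 0.18). PKP4 missed the threshold when arrays were centred on their medians (0.69, limma adjusted p = 0.0823). Of 4 tested gap junction genes 3 passed and all were lower, where 15.4% of all genes were lower. GJB2 fell by 2.55 (SE 0.44), PANX1 fell by 0.59, and GJA1, the main connexin of astrocytes, fell by 0.56. Scaled to the spiked-in hybridisation or poly-A controls, GJB2 still passed and PANX1 and GJA1 did not. The same 3 genes were higher with miR-376a*A than with miR-376a*G, where 16.4% of all genes were higher. PPL and GJB2 were not tested when a gene had to be above the array median on all 9 arrays. Then 0 of 3 desmosome and plakin genes and 2 of 3 gap junction genes were lower with miR-376a*G than with control, where 17.1% of all genes were. PPL and GJB2 were thus below the median on some arrays, and their differences and the counts that include them are a description.

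Repressors of epithelial junction genes, such as the zinc finger proteins of the SNAI and ZEB families, bind E-box sequences in promoters of claudin, occludin and cadherin genes. Of 7 tested with miR-376a*G against control 5 fell and 0 rose, with a median of -0.64, where 15.4% of all genes were lower and the median of all was 0.12. SNAI2 fell by 2.13 (SE 0.12, limma adjusted p = 1.04e-05), ZEB2 by 1.10 (SE 0.19, limma adjusted p = 0.00244), TCF4 by 1.06 and TWIST1 by 0.64. The count was 3 of 7 when scaled to the spiked-in hybridisation or poly-A controls (7.52% and 9.07% of all genes were then lower), where SNAI2, ZEB2 and TCF4 passed and TWIST1 did not; none of these 4 changed sign under the scalings tried. On 7 arrays with miR-376a*A against control 5 of 7 were higher, where 41.9% of all genes passed in either direction; they included TCF3 (0.98), TCF4 (0.51), ZEB1 (0.42) and SNAI2 (0.31). Of 4 tested transcription factors of epithelia, 1 rose and 1 fell with miR-376a*G against control, where 33.4% of all genes passed. KLF5 rose by 0.64 and KLF4 fell by 0.70, the latter losing its call when scaled to either set of spiked-in controls.

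**Figure D4:**
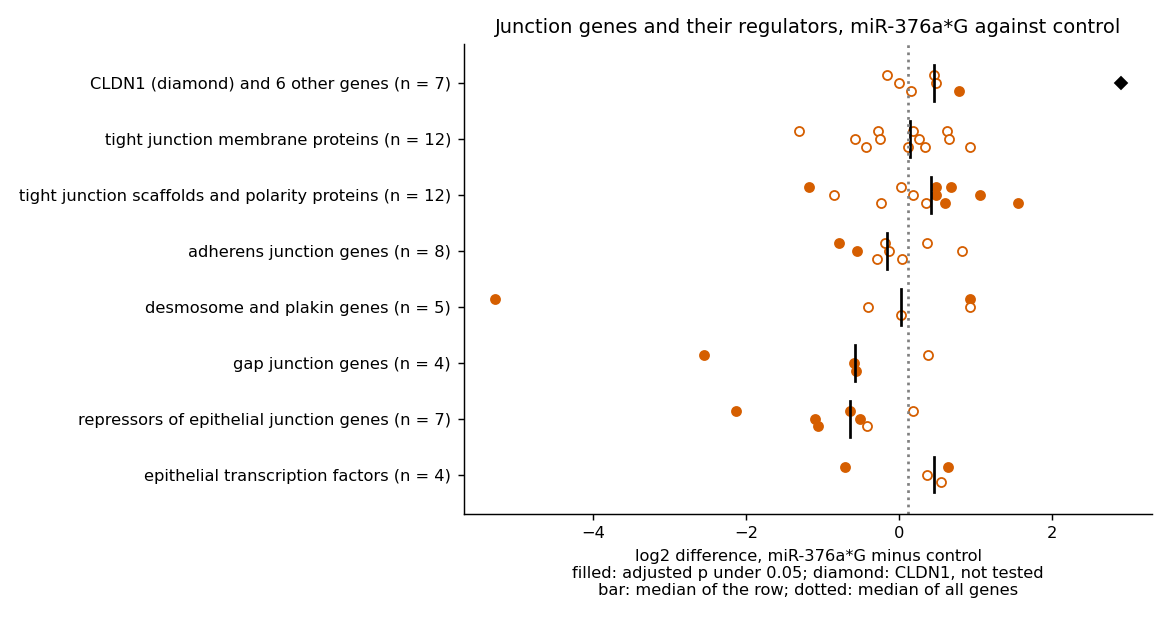
Log2 difference of miR-376a*G minus control on 9 arrays for CLDN1 (diamond), the 6 other tested genes and 7 wider lists; filled circles passed an adjusted p of 0.05, bars are the median of each row, and the dotted line is the median of all genes at 0.12. CLDN1 lies at 2.90, right of every other gene plotted, and 5 of the 7 repressor genes are filled and left of 0.

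Promoter sequence was read to show what the start of CLDN1 and of OCLN holds of the E-box letters CANNTG, which read the same on both strands. The windows are the 250 bases before a RefSeq start on GRCh38.p14, with any CANNTG in capitals. CLDN1's is chr3:190322447-190322696 on the minus strand, and OCLN's is chr5:69492297-69492546 on the plus strand.

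CLDN1: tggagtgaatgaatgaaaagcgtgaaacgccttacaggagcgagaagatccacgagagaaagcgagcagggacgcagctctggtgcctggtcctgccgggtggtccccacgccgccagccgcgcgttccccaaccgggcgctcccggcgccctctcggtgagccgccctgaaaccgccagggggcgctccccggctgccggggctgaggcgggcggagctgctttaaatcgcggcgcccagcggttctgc

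OCLN: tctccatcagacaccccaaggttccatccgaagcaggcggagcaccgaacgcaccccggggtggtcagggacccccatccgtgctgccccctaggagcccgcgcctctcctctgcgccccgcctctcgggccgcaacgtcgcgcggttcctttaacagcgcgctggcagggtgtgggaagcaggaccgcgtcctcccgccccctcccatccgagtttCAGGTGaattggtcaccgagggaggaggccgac

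CLDN1's window has no CANNTG and is 68.8% G or C. OCLN's has 1, CAGGTG, starting 33 bases before the start site, and the window of its second start also holds 1 CAGGTG. CGN's window has 1 CANNTG, CGNL1's and CLDN12's have 0, and TJP1 has 1 in the first of its 4 windows. CLDN11 has 0 in its first window and 1, CAAGTG, in its second. JAM3 and F11R are named only. CANNTG is present in 61.8% of 35116 windows of this length in the table and CAGGTG or CACCTG, each the other's reverse complement and both included in CANNTG, in 17.5%. A match is a description of letters and no statement about binding.

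Markers of other cell types were set beside the rise of CLDN1, which is a gene of squamous epithelium among others. Of 9 squamous markers, all with a probe set and 5 tested, 1 rose with miR-376a*G against control: SPRR2B by 4.46 (SE 0.39), with a mean signal of 51.8 against 1.45 in controls. SPRR2B was above the array median on 3 arrays only, so it passed the filter through miR-376a*G, and its control level is far below the array median. In this comparison 18.0% of all genes were higher. On the 7 arrays 3 of 5 rose, IVL by 0.97 (limma adjusted p = 0.0276), SPRR3 by 2.15 and SPRR2B by 4.68, where 31.2% of all genes were higher. SPRR3 too was above the array median on 3 arrays only. Its mean signals were 10.6 in controls, 11.6 with miR-376a*A and 31.4 with miR-376a*G. The rises of SPRR2B and SPRR3 are therefore a description, and so is a count that includes them. IVL was above the array median on 4 of 9 arrays. Its mean signals were 17.8 in controls, 14.5 with miR-376a*A and 28.9 with miR-376a*G, so its rise has a similar limit. The keratinocyte markers KRT5, KRT14, SPRR1B and TGM1 were above the array median on 0 arrays. The summed squamous signal was 263 to 288 in controls, 197 to 231 with miR-376a*A and 345 to 384 with miR-376a*G. SFN, the marker with the highest signal, had means of 207, 155 and 208 in that order of groups. Its difference between miR-376a*G and control was 0.02 (limma adjusted p = 0.946). The higher sum with miR-376a*G than with control therefore came from other markers, among them SPRR2B and SPRR3. Against miR-376a*A, SFN was itself part of the higher sum. The part of these markers in the CLDN1 result was not tested.

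Endothelial markers, 6 in all with 1 tested, summed to 62.1 to 168 in controls, 72.2 to 145 with miR-376a*A and 116 to 146 with miR-376a*G; CLDN5, ESAM and VWF were above the median on 0 arrays. The tested one, PECAM1, did not pass on 9 arrays and was higher than control on 7, by 1.12 with miR-376a*G and 1.31 with miR-376a*A. Oligodendrocyte markers, where CLDN11 would belong, had probe sets for 5 of 6, 2 of them tested, and summed to 76.1 to 94.9, 81.9 to 96.9 and 98.1 to 131 in the same order of groups. Of the 2 tested, SOX10 was higher with miR-376a*G than with control, by 0.77 (limma adjusted p = 0.0346) on 9 arrays and 0.88 (limma adjusted p = 0.012) on 7. On those arrays 18.0% and 31.2% of all genes were higher. The other, MBP, had the opposite sign and did not pass, at -0.39 (limma adjusted p = 0.242) and -0.50 (limma adjusted p = 0.106). Leukocyte markers had probe sets for 3 of 4, none tested, and summed to 9.95 to 28.1, 13.7 to 33.8 and 20.1 to 28.7.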

How the data were processed

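The authors deposited 1 linear intensity per probe set and array. GCOS 1.4.0.036 is the tool in the submitters' processing notes; how probes were summarised is not given in the sources used here. Deposited intensities have a mean of 100 after trimming 2% at each end on all arrays, so a change in total messenger RNA would be removed. The table used here has no detection calls, and 3 arrays a group limit the precision.

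Of 54675 probe sets, 42898 are in the platform's probe table and 41097 name 1 gene, 19775 genes in all; 0 symbols needed updating from RefSeq. For a gene with several, the probe set of highest mean log2(signal + 1) over 9 arrays was kept, and tested if above the array median on at least 3 arrays (12587 genes), a filter that CLDN1's second probe set passed through miR-376a*G alone. limma 3.58.1 in R 4.3.3 was fitted with 1 coefficient per group (6 residual degrees of freedom; 4 on 7 arrays), eBayes with an intensity trend, two-sided tests and Benjamini-Hochberg adjustment over all genes or, for probe sets, all 24316 tested. The steps were tested on simulated data. Genes, lists and the rule for naming genes (tested members; at most the 4 called genes of smallest p in a wider list; the 5 most correlated with CLDN1) were chosen with earlier results of these data known. Alternatives changed the pseudocount, filter, scaling, probe set, model and arrays. No pairing of arrays by replicate number was seen, though the check could not exclude it. Target sites in transcripts were not analysed here.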

Additional observations from a re-analysis of the deposited data

How the results depend on the processing

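CLDN1 kept its direction in all 3 comparisons under every setting run, but it was not tested where a gene had to be above the median on all 9 arrays. Its difference between miR-376a*G and control was 2.35 and 1.54 with pseudocounts of 16 and 64, 2.67 with arrays centred on their medians, 3.30 and 3.19 scaled to hybridisation and poly-A controls, 2.81 as the mean of its probe sets, 2.72 on 218182_s_at (no separate check, since it passed the filter through miR-376a*G alone), and 2.85 to 2.94 when 1 array was left out. Between the 2 forms it was -2.66 and -1.66 with those pseudocounts, -4.12 scaled to hybridisation controls, and -3.78 to -3.22 leaving out 1 array. Between miR-376a*A and control it passed at -0.85 with array weights (limma adjusted p = 0.00238) and -0.87 on 7 arrays, and was -0.88 to -0.32 leaving out 1 array, with limma adjusted p of 0.219 to 1.

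The count of other genes passing between miR-376a*G and control was 1, where 33.4% of all genes passed. Percentages in brackets are the shares of all genes that passed in the same setting. The count was 2 with pseudocounts of 16 (34%) and 64 (34.5%). It was 3 scaled to hybridisation (51.9%) or poly-A controls (45.4%), without the intensity trend (32.9%), with array weights (62.5%) or on 7 arrays (56.1%). With the mean of probe sets it was 0 (29.7%), and 0 to 1 leaving out 1 array (23.8% to 39.3%). Between the 2 forms the count was 3 (38.2%). It was 1 with no filter (23.5%), the filter on all 9 arrays (41.9%), median centring (33.6%), quantile normalization (39.5%) or the mean of probe sets (34.7%). It was 5 scaled to hybridisation controls (70.6%), with array weights (62.5%) or on 7 arrays (59.6%), and 0 to 3 leaving out 1 array (27.8% to 44.5%). Between miR-376a*A and control the count was 0 (0%). It was 2 with array weights (43.8%) or on 7 arrays (41.9%), and 0 to 0 leaving out 1 array (0%). The gene that passed was not always the same: median centring called TJP1 in both comparisons of miR-376a*G, and OCLN, CGN and CGNL1 in neither.

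Same-numbered arrays had deviation correlations of -0.881 to 0.046, so no pairing by replicate number was seen. The lowest values, -0.881, -0.606 and -0.556, were between miR-376a*A and control. Those groups hold the 2 arrays that stood apart, which affects such values, so the check cannot decide whether the arrays were paired. With the replicate number as a block the counts were 1, 0 and 0, where 23.3%, 0% and 27.4% of all genes passed. The 3 calls between the 2 forms were thus lost. The wider scaffold genes rising with miR-376a*G fell from 6 to 3, where 11.9% of all genes were higher.

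Signs turned as follows; the cause was not tested. Between miR-376a*G and control, CLDN12 was -0.07 with median centring, -0.16 with array weights, -0.18 on 7 arrays and -0.18 to 0.36 leaving out 1 array. JAM3 was 0.029 with quantile normalization, 0.39 and 0.28 scaled to hybridisation and poly-A controls, 0.17 on 231720_s_at, 0.27 with array weights, 0.27 on 7 arrays and -0.15 to 0.27 leaving out 1 array. TJP1 was 0.25 and 0.14 with those scalings, 0.007 as the mean of probe sets and 0.17 on 214168_s_at, and CGNL1 was -0.71 on 225817_at. Between miR-376a*A and control, TJP1 was 0.08 with poly-A scaling, 0.22 as the mean of probe sets, 0.46 on 214168_s_at, 0.07 with array weights, 0.066 on 7 arrays and -0.087 to 0.048 leaving out 1 array, and CGNL1 was -0.10 scaled to hybridisation controls. Between the 2 forms, TJP1 was -0.54 (limma adjusted p = 0.00674) and -0.054 with hybridisation and poly-A scaling, JAM3 was -0.18 with the former, and CGNL1 was 0.16 as the mean of probe sets and 0.94 on 225817_at.

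Scaling shifts all genes: the median difference between miR-376a*G and control was 0.12 as deposited, -0.12 centred on medians, 0.52 on hybridisation controls and 0.40 on poly-A controls, and 53.9%, 29.2%, 85.5% and 80.0% of calls were then higher. Between the 2 forms the medians were -0.14, 0.11, -0.81 and -0.33, with 43.0%, 70.1%, 7.62% and 27.0% of calls higher. CLDN1 outside miR-376a*G, OCLN, CGN, CGNL1 and CLDN11 lie near or below the array median, where no detection call was used to judge signal over background.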
